A study of Rattus norvegicus with 10 samples.

Results

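The genes described here encode the receptors through which retinal cells sense glutamate, GABA and glycine. They were taken by symbol: each probe set with a single symbol for an AMPA (Gria), kainate (Grik), NMDA (Grin), delta (Grid) or metabotropic (Grm) glutamate receptor, a GABA-A alpha, beta, gamma, delta or rho subunit (Gabra, Gabrb, Gabrg, Gabrd, Gabrr), a GABA-B subunit (Gabbr) or a glycine receptor subunit (Glra, Glrb), with Grm6 and Grina left out. This gave 42 genes of the 14324 with a singly named probe set. They comprised 4 AMPA, 5 kainate, 7 NMDA and 1 delta receptor genes, 6 metabotropic receptors, 13 GABA-A subunits of which 3 are rho subunits, 2 GABA-B subunits and 4 glycine receptor subunits. Each gene was read from 1 probe set, and for Grid1, the one gene with more than 1, from the brighter.

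Ionotropic receptors are ion channels opened by the transmitter itself. AMPA, kainate and NMDA receptors pass cations and excite the cell, whereas GABA-A and glycine receptors pass chloride, which in immature neurons can depolarise and in mature ones usually inhibits. Metabotropic glutamate receptors and GABA-B receptors act through G proteins and are slower. In the adult retina photoreceptors and bipolar cells release glutamate, and horizontal and amacrine cells release GABA or glycine. In the newborn rat retina these circuits are still being built, bipolar cells and rods are still being born, and spontaneous activity is carried largely by amacrine and ganglion cells.

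Retinal RNA of rats at postnatal day 3 was measured on Affymetrix whole-transcript rat gene arrays. Litters with their mothers had entered an oxygen chamber within 12 hours of birth, where 24-hour periods of 80% and of 21% oxygen alternated, and controls of the same age stayed in room air. The strains were F344 (Fischer), which the study's design calls resistant to oxygen-induced retinopathy, which models in rodents the retinopathy of premature infants, and SD, which it calls susceptible. There were 3 pools of F344 in hyperoxia, 2 of F344 in room air, 2 of SD in hyperoxia and 3 of SD in room air, all from animals with no engineered allele named in the labels. Each pool was RNA of 3 rats from 2 litters on 1 array, and different rats went into different pools, so a pool is the replicate and the spread between single animals was not measured. The authors ran 8 arrays first and then added 1 for F344 hyperoxia and 1 for SD room air, a choice based on a principal component analysis. These are taken here to be the pools numbered 3, an inference from the numbering.

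Values are log2 expression, where 1 unit is a factor of 2, deposited to 1 decimal, so small differences come in steps. Tests were limma's, fitted to all 27342 probe sets and 10 arrays at once, with p-values adjusted by Benjamini-Hochberg across the whole table. A gene is called changed at an adjusted p below 0.05, and rose, fell and called refer to this threshold. Errors are standard errors (SE) and 95% confidence intervals of the fit, or standard deviations (SD) over pools where so named. In whole-retina RNA, fewer cells of a type and less RNA per cell cannot be told apart.

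Markers of the labelled tissue were present: the photoreceptor factor Crx lay between 10.7 and 11.2 in the 10 pools, the amacrine and horizontal cell factor Tfap2b between 10.7 and 11.3, and the ganglion cell factor Pou4f1 between 6.3 and 6.8. Trpm1, a channel of mature ON bipolar cells, lay between 4.8 and 5.8 with a median of 5.15, between the lower quartile (4.84) and the median (5.96) of all probe set means apart from its lowest value. The mean of 6 skeletal muscle markers stayed between 5.38 and 5.55. The pools numbered 3, 1 from F344 hyperoxia and 1 from SD room air, stood apart from the rest. On the first principal component of all probe sets, which held 34.1% of the variance, they lay at 30.08 and 36.41 and the other 8 pools at or below -1.765. Several results are therefore also given without these 2 pools. The family ranges and the intervals are given with all 10 pools only.

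The receptor genes mostly varied little among the 10 pools. The 10 values of 29 genes spanned at most 0.5, the median span was 0.5 against 0.4 over all genes, and 5 genes spanned 0.8 or more. Those were Gabrr3 (5.2 to 6.9), Grm2 (5.5 to 6.9), Grik3 (6.1 to 6.9), Grin2c (6.4 to 7.2) and Grin3b (5.0 to 5.8). At the other end Grin1, the subunit every NMDA receptor needs, stayed between 7.0 and 7.2, and the kainate subunit Grik1 between 8.1 and 8.3. Within each family the span ran from 0.4 (Gria4) to 0.6 (Gria2) for AMPA, from 0.2 (Grik1) to 0.8 (Grik3) for kainate, from 0.2 (Grin1) to 0.8 (Grin2c) for NMDA, from 0.3 (Grm4) to 1.4 (Grm2) for metabotropic, from 0.3 (Gabra4) to 1.7 (Gabrr3) for GABA-A and from 0.3 (Glra1) to 0.5 (Glra2) for glycine receptors. Grid1 spanned 0.6, and both GABA-B subunits spanned 0.4.

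**Figure D1:**
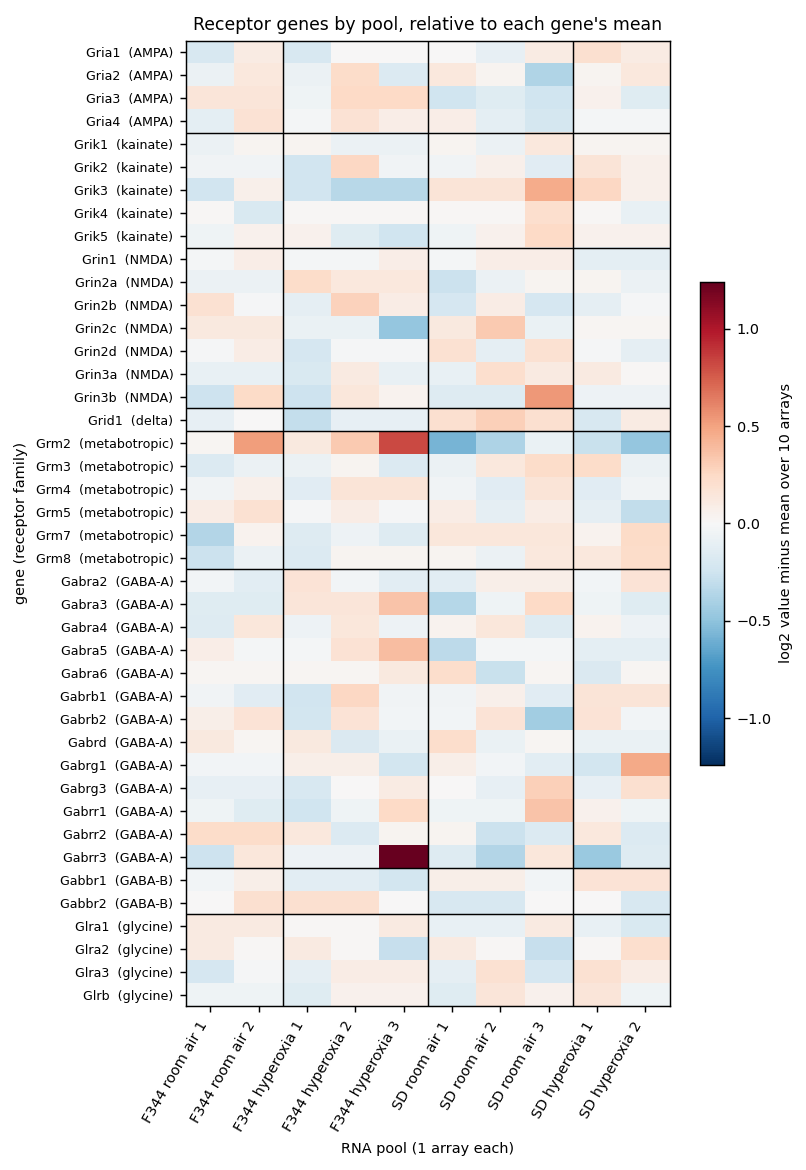
Each row is 1 of the 42 receptor genes and each column 1 RNA pool; colour gives the log2 value minus the gene's mean over the 10 arrays, and black lines separate receptor families and the 4 groups. Grm2 is above its mean in the 5 F344 pools and below it in the 5 SD pools, and the darkest cell is Gabrr3 in F344 hyperoxia pool 3 (6.9).

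The probe sets of 6 genes, Gabra6, Gabrd, Gabrg1, Gabrr2, Glra1 and Glra3, had means below the lower quartile of all probe sets (4.84). Of the 42 genes, 18 lay below the median probe set (5.96) and 24 at or above it. Detection calls were not analysed here, so for dim probe sets a small difference may be measured poorly. Levels of different genes are not set against each other, since each probe set binds with its own strength.

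The question put first by the design is whether cyclic hyperoxia changes expression in the strain that is susceptible or in the one that is resistant. No receptor gene was called in either strain. In SD, limma called 0 of 42 members against 0.0439% of all probe sets, and 1 member, Grid1, had an unadjusted p below 0.05, where 5.95% of all probe sets did. In F344 it called 0 of 42 against 0.00366%, and 2 members, Gabra3 and Grin2c, had an unadjusted p below 0.05, where 4.83% of all probe sets did. Averaged over both strains it called 0 of 42 against 0.0402%, with 2 members (Grid1 and Grm5) at an unadjusted p below 0.05 against 4.08% of all probe sets. The counts were also 0 in all 3 comparisons without the 2 pools numbered 3.

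The intervals bound what could have been missed. In SD the 95% interval of all 42 members lay within a log2 difference of 1 either way, and that of 37 within 0.5. In F344 it lay within 1 for 41 members, the exception being Gabrr3, and within 0.5 for 35. Gabrr3 read 6.9 in F344 hyperoxia pool 3 and 5.6 in pools 1 and 2, and its estimate of 0.43 was the highest in F344. The median member differed by -0.01 in SD (range -0.28 to 0.20) and by 0.03 in F344 (range -0.33 to 0.43), where the median over all genes lay between 0.00 and 0.02 in every comparison.

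**Figure D2:**
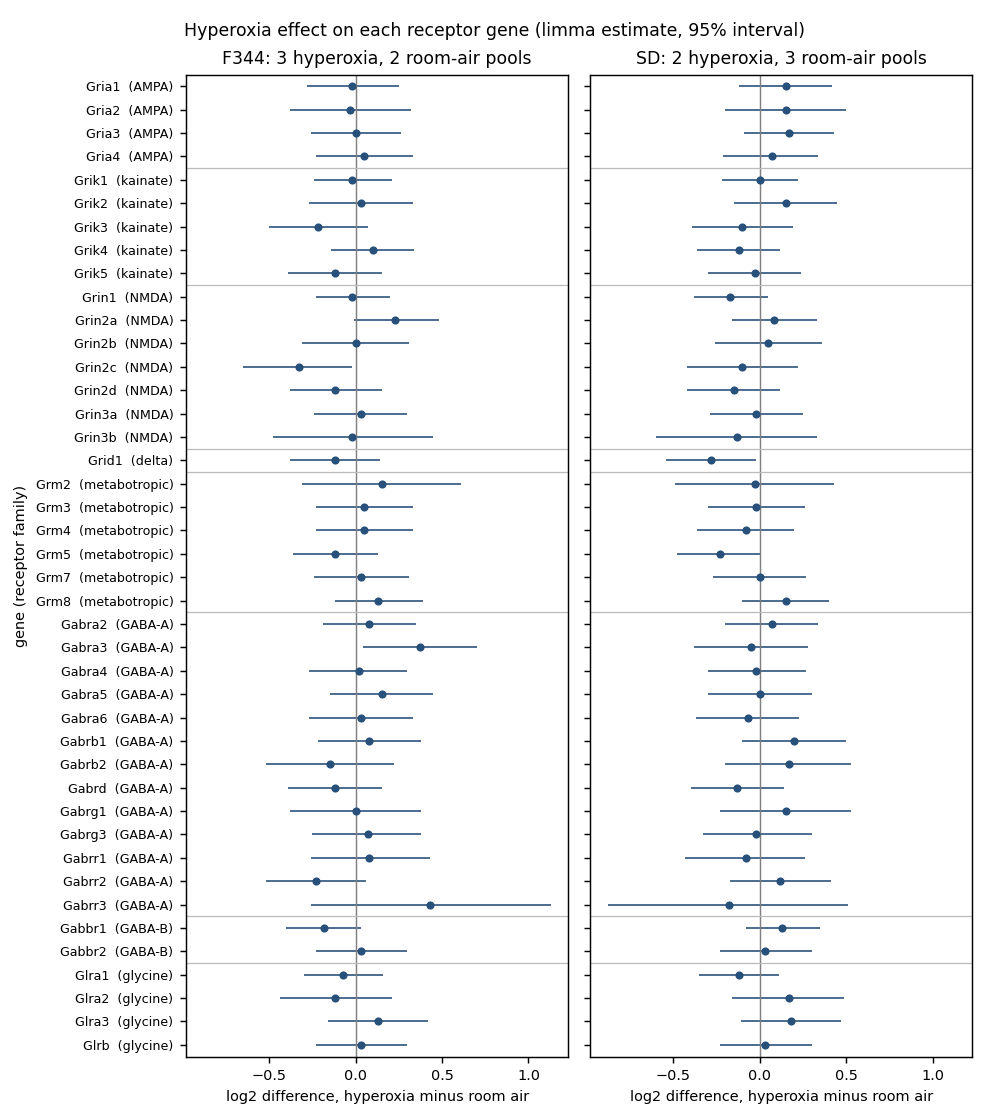
Points are limma's log2 difference, hyperoxia minus room air, for each receptor gene in F344 (left) and SD (right), and bars are 95% confidence intervals. The points run from -0.33 to 0.43 in F344 and from -0.28 to 0.20 in SD, and the widest interval in both strains belongs to Gabrr3.

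By family, the fast excitatory receptors gave small estimates in hyperoxia. The 4 AMPA subunits lay between 0.07 and 0.17 above room air in SD and between -0.03 and 0.05 in F344, none of them called. The 5 kainate subunits lay between -0.12 and 0.15 in SD and between -0.22 and 0.10 in F344. Among the 7 NMDA subunits the range was -0.17 to 0.08 in SD and -0.33 to 0.23 in F344. The 13 GABA-A subunits ranged from -0.18 to 0.20 in SD and from -0.23 to 0.43 in F344, and the 4 glycine receptor subunits from -0.12 to 0.18 and from -0.12 to 0.13. For the 6 metabotropic receptors the range was -0.23 to 0.15 in SD and -0.12 to 0.15 in F344.

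Grid1 encodes a delta receptor, an adhesion-like relative of the glutamate channels that binds cerebellins at synapses. It read 7.2 and 7.5 in the SD hyperoxia pools and 7.6, 7.7 and 7.6 in the SD room-air pools. The groups did not overlap, but the difference of -0.28 (SE 0.119, 95% interval -0.54 to -0.02) had a limma adjusted p of 0.815. It was -0.13 without SD hyperoxia pool 1 and -0.43 without pool 2. The gene's second, dimmer probe set gave 0.07 in SD and 0.02 averaged over both strains, where the brighter gave -0.20 on average. In F344 Grid1 read 7.1, 7.3 and 7.3 in hyperoxia and 7.3 and 7.4 in room air, a difference of -0.12 (SE 0.119).

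Grm5, a group I metabotropic receptor that raises intracellular calcium, read 4.8 and 4.6 in SD hyperoxia and 5.0, 4.8 and 5.0 in SD room air, a difference of -0.23 with an adjusted p of 0.815, and of -0.13 without SD hyperoxia pool 2. Grin1 differed by -0.17 and Gabrb1, a GABA-A beta subunit, by 0.20 in SD, also with adjusted p-values of 0.815. In SD, 4 of 42 members (9.52%) had groups that did not overlap, against 15.3% of all probe sets. Gabbr1 and Gabrb1 were higher and Grid1 and Grin1 lower in hyperoxia. Without SD room-air pool 3 the count was 8 (19.0%). The matching share of all probe sets is not given here, so that count is not set against a background.

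In F344 the smallest unadjusted p-values were those of Gabra3 and Grin2c. Gabra3, a GABA-A alpha subunit, read 7.8, 7.8 and 8.0 in hyperoxia and 7.5 and 7.5 in room air, a difference of 0.37 (SE 0.152, adjusted p 0.921). Grin2c, an NMDA receptor subunit, read 6.8, 6.8 and 6.4 in hyperoxia and 7.0 and 7.0 in room air, a difference of -0.33 (SE 0.146, adjusted p 0.921). All 3 hyperoxia pools were above both room-air pools for Gabra3 and below both for Grin2c. Pool 3 held the extreme value of both genes, and without the pools numbered 3 the differences were 0.30 and -0.20.

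Grin2a, another NMDA subunit, differed by 0.23 and Gabbr1, the GABA-B subunit that binds GABA, by -0.18 in F344, each with an adjusted p of 0.921. In F344, 5 of 42 members (11.9%) did not overlap, Gabra3 and Grin2a higher and Gabbr1, Gabrr2 and Grin2c lower in hyperoxia, against 12.3% of all probe sets. Without F344 hyperoxia pool 3 the count was 7 (16.7%). Over both strains together, with 5 hyperoxia and 5 room-air pools, 0 of 42 members were without overlap, against 0.34% of all probe sets. Without the pools numbered 3 the count was 1 (Grin2c, 2.38%). For these 2 smaller sets of pools, too, the matching share of all probe sets is not given here.

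Whether the 2 strains respond differently to hyperoxia was tested by subtracting the F344 effect from the SD effect. Limma called 0 of 42 members and 0.0% of all probe sets, with 1 member at an unadjusted p below 0.05 against 7.51% of all probe sets. That member was Gabbr1, whose 2 SD hyperoxia pools both read 9.4 above 9.3, 9.3 and 9.2 in SD room air, while its F344 hyperoxia pools read 9.1, 9.1 and 9.0 below 9.2 and 9.3 in F344 room air. The effects thus lay in opposite directions, with a difference of 0.32 (SE 0.14, 95% interval 0.01 to 0.62, adjusted p 0.651). Gabra3 gave -0.42, Gabrr2, a rho subunit, 0.35, and Grik4, a high-affinity kainate subunit, -0.22, with adjusted p-values between 0.662 and 0.706. Leaving out 1 pool moved these 3 values between -0.57 and -0.27 (the latter without SD room-air pool 3), between 0.20 and 0.50 (0.20 without SD hyperoxia pool 1) and between -0.32 and -0.12 (-0.12 without F344 room-air pool 2). The intervals of this comparison were wider, and 19 of 42 members had theirs within 0.5 either way. A moderate difference in response could thus not have been detected for most of these genes. Both pools numbered 3 also lie in groups that this comparison subtracts, F344 hyperoxia and SD room air. The fit has no term for these pools, so a shift that they share enters the values.

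Between the strains, averaged over both exposures, 1 receptor gene passed the threshold, Grm2. It encodes mGluR2, a group II metabotropic receptor that couples to inhibitory G proteins and is known in the retina from the cholinergic amacrine cells. Grm2 read 6.1 and 6.6 in F344 room air, 6.2, 6.4 and 6.9 in F344 hyperoxia, 5.5, 5.7 and 6.0 in SD room air and 5.8 and 5.6 in SD hyperoxia. The lowest F344 pool (6.1) was above the highest SD pool (6.0), by a single step of the rounded values. The mean was 6.44 ± 0.321 (SD, n = 5) in F344 and 5.72 ± 0.192 (SD, n = 5) in SD.

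Averaged over both exposures, Grm2 was 1.63-fold lower in SD, a log2 difference of -0.71 (SE 0.15, 95% interval -1.03 to -0.38, limma adjusted p 0.0383). It was the 1 member called of 42, against 1.35% of all probe sets, so the count itself was close to the background. The difference was -0.62 in room air (SE 0.212, adjusted p 0.301) and -0.80 in hyperoxia (SE 0.212, adjusted p 0.234), neither of them called, and hyperoxia differed from room air by 0.15 in F344 and -0.03 in SD. The room-air difference was -0.37 without F344 room-air pool 2, and with a term for the added arrays it was -0.78 with an adjusted p of 0.0214, a call. Without both pools numbered 3 the averaged difference was -0.68 (adjusted p 0.0415) and the call held. The strains did not overlap for Grm2, as for 2.02% of all probe sets. Leaving out single pools moved it between -0.83 and -0.58, lower in SD each time. The call ended in 7 of these 10 fits, with adjusted p-values of 0.0768 without F344 hyperoxia pool 2, 0.0558 and 0.278 without F344 room-air pools 1 and 2, 0.143 and 0.254 without SD hyperoxia pools 1 and 2, and 0.109 and 0.118 without SD room-air pools 1 and 2. Without F344 hyperoxia pool 1 (0.0371) or pool 3 (0.0418), or SD room-air pool 3 (0.0242), it held.

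Grik3, a kainate subunit that forms channels of low agonist affinity, lay the other way. It read 6.2 and 6.5 in F344 room air, 6.2, 6.1 and 6.1 in F344 hyperoxia, 6.6, 6.6 and 6.9 in SD room air and 6.7 and 6.5 in SD hyperoxia. The strains met at 6.5, the value of F344 room-air pool 2 and of SD hyperoxia pool 2, and otherwise did not overlap. The averaged difference, SD minus F344, was 0.41 (SE 0.0936, 95% interval 0.20 to 0.61), with a limma adjusted p of 0.0614, so Grik3 was not called. The adjusted p was 0.0191 with a term for the added arrays, 0.0306 with array weights and 0.0429 with a gene's probe sets averaged, which are calls, and 0.119 without both pools numbered 3. Grik3 has 1 probe set, so averaging left its values as they were and changed only the genes fitted alongside it. All 5 kainate subunits had averaged estimates above 0, the other 4 from 0.06, and Grik1 at 0.06 and Grik4 at 0.06 stayed far from the threshold with adjusted p-values of 0.895 and 0.905.

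The kainate receptor's auxiliary subunit Neto2, which slows the closing of these channels, was 1 of 9 AMPA and kainate auxiliary genes measured and the 1 of them called between the strains. Neto2 read 9.3 and 9.4 in F344 room air, 9.2, 9.2 and 8.9 in F344 hyperoxia, 9.7, 9.7 and 9.5 in SD room air and 9.7 and 9.6 in SD hyperoxia. No F344 pool reached the lowest SD pool. It was higher in SD by 0.42 (SE 0.0869, 95% interval 0.23 to 0.61, limma adjusted p 0.0359). With each array centred on its median the difference was 0.41 and the adjusted p 0.0843, which ends the call. Leaving out single pools kept the difference between 0.37 and 0.45, but the call held in 3 of 10 fits, those without F344 hyperoxia pool 2 or 3 or SD room-air pool 3. It ended without F344 hyperoxia pool 1 (adjusted p 0.0567), and without pool 1 or 2 of F344 room air, SD hyperoxia or SD room air (adjusted p 0.0938 to 0.217). With both pools numbered 3 left out it was 0.0219.

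**Figure D3:**
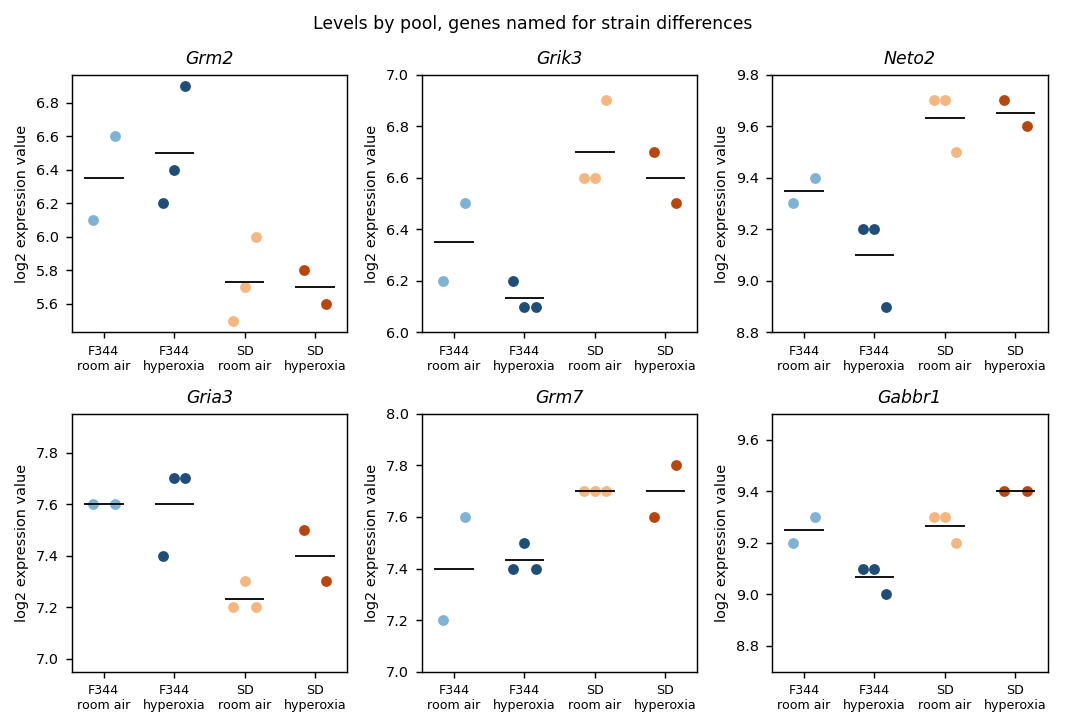
Log2 expression by pool in the 4 groups for 5 receptor genes and the kainate receptor auxiliary subunit Neto2, with points for pools and lines for group means; each panel has its own axis. Grm2 and Gria3 are lower and Grik3, Neto2 and Grm7 higher in SD by group mean in both exposures, and of these Grm2 and Neto2 passed the test, while Gabbr1 separates the strains in hyperoxia (9.4 in SD, 9.1 or less in F344) and not in room air.

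Gria3, an AMPA receptor subunit, was lower in SD in both exposures by its group means without being called. It read 7.6 in both F344 room-air pools and 7.2, 7.3 and 7.2 in SD room air, a difference of -0.37 (SE 0.12, adjusted p 0.273). In hyperoxia it read 7.4, 7.7 and 7.7 in F344 and 7.5 and 7.3 in SD, where the strains overlapped. The averaged difference was -0.28 with an adjusted p of 0.197. The other AMPA subunits gave averaged differences of 0.13 (Gria1), -0.01 (Gria2) and -0.11 (Gria4).

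Grm7, a presynaptic group III metabotropic receptor, read 7.7 in all 3 SD room-air pools and 7.6 and 7.8 in SD hyperoxia. In F344 it read 7.2 and 7.6 in room air and 7.4, 7.5 and 7.4 in hyperoxia. The averaged difference was 0.28 (SE 0.0889, adjusted p 0.227), and 0.18 without F344 room-air pool 1. The SD pools lay within a span of 0.2, and the 2 F344 room-air pools alone spanned 0.4.

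The GABA-B receptor is an obligate pair, in which Gabbr1 binds GABA and Gabbr2 couples to the G protein. Gabbr1 was 0.17 higher and Gabbr2 0.23 lower in SD on average, with adjusted p-values of 0.44 and 0.368, so neither was called. Gabbr2 read between 7.6 and 7.8 in the 5 F344 pools and between 7.4 and 7.6 in the 5 SD pools, and the strains met at 7.6. In hyperoxia alone Gabbr1 was higher in SD by 0.33 (SE 0.0988, adjusted p 0.35) and in room air by 0.02.

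Over all members the strain comparisons called 0 of 42 in room air against 0.556% of all probe sets and 0 of 42 in hyperoxia against 0.457%. At an unadjusted p below 0.05 there were 6 members in room air against 11.4%, 4 in hyperoxia against 6.64% and 10 on average (23.8%) against 9.13% of all probe sets. Groups did not overlap for 6 members in room air (14.3%) against 19.7%. In hyperoxia they did not overlap for 14 members (33.3%) against 14.7% of all probe sets, and for 15 (35.7%) against 22.9% without F344 pool 3. The 14 were Gabbr1, Gria1, Grik3, Grin2c, Grm7 and Grm8, higher in SD, and Gabra3, Gabra5, Gabrr3, Glra1, Grin1, Grin2a, Grm2 and Grm5, lower in SD. None of them was called in hyperoxia. The room-air and hyperoxia comparisons share no pool, and Gabra5, a GABA-A alpha subunit, gave -0.30 in hyperoxia (adjusted p 0.745) and -0.15 in room air, while Gabrr2 gave -0.02 in hyperoxia and -0.37 in room air (adjusted p 0.326). On the first principal component of the 42 genes, which held 42.3% of their variance, the F344 pools lay between 0.00588 and 1.78 and the SD pools between -0.784 and 0.0552, and F344 hyperoxia pool 3 was the pool at 1.78.

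In whole retinas a strain difference can accompany a difference in cell makeup. Of 13 photoreceptor markers 1 was called higher in SD on average (Opn1sw, the short-wave cone opsin, 0.71) and 0 lower, with 11 estimates above 0 and a median of 0.15. In room air 12 lay above 0, with a median of 0.32, but in hyperoxia 6 lay above and 7 below 0, with a median of -0.03. The room-air comparison includes SD pool 3, which had the highest mean of this list (9.30). The hyperoxia comparison includes F344 pool 3, whose mean of 9.18 was above those of the SD hyperoxia pools (9.05 and 9.08). The lowest F344 hyperoxia mean was 8.9. The rod genes Sag (arrestin, 0.66, adjusted p 0.0876) and Pde6b (a phosphodiesterase subunit, 0.55, adjusted p 0.0622) were not called on average. Of 8 bipolar markers 1 was called higher (Car8, 1.06) and 0 lower. None of 18 amacrine and horizontal, 14 ganglion cell, 12 progenitor and Mueller glia and 14 cell cycle markers was called, with 7, 1, 1 and 0 at an unadjusted p below 0.05. Averaged over both exposures, limma called 1.35% of all probe sets between the strains, and 9.13% had an unadjusted p below 0.05. The part of cell makeup in the Grm2, Grik3 and Neto2 values was not tested.

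Gabrr3, whose values spanned the most of the 42 genes (1.7), is 1 of the 3 rho subunits, which form GABA-gated chloride channels known above all from bipolar cell terminals. The 250 bases before the RefSeq gene start of each are shown (assembly GRCr8) because 2 of the 3 genes were called higher in the pools numbered 3. Gabrr1 lies at chr5:52320225-52320474 on the plus strand, its neighbour Gabrr2 at chr5:52248228-52248477 on the plus strand, and Gabrr3 at chr11:54424467-54424716 on the minus strand. Capitals mark TAATCC in either orientation, the core letters bound by the photoreceptor and bipolar factors OTX2 and CRX.
Gabrr1: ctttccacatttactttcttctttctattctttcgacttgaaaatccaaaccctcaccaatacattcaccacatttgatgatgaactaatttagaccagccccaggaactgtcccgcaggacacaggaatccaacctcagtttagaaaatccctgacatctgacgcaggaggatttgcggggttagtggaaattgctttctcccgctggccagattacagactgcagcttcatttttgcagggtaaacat
Gabrr2: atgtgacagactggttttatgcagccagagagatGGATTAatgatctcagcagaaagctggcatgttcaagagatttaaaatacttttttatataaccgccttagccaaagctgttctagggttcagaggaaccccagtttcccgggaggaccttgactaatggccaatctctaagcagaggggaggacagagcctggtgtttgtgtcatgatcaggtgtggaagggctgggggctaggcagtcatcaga
Gabrr3: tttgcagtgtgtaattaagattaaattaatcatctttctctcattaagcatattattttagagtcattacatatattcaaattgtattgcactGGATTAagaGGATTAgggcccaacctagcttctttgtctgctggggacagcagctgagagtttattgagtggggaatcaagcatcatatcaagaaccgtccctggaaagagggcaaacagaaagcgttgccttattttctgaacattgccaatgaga

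Gabrr1 held 0 matches, Gabrr2 held 1, at 216 bases before the start, and Gabrr3 held 2, at 157 and 148. Of 27457 promoter windows of 250 bases, 6.33% held at least 1 match, and of the receptor genes, 30 had a window and 3 of these held a match (10%). These matches are letters in a window and not measured sites.

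Gabrr3 read 6.9 in F344 hyperoxia pool 3 and 5.6 and 5.6 in the other F344 hyperoxia pools, 5.8 in SD room-air pool 3 and 5.5 and 5.3 in the other SD room-air pools, 5.4 and 5.8 in F344 room air and 5.2 and 5.5 in SD hyperoxia. The first value lay far above the other 9, and SD room-air pool 3 shared its 5.8 with F344 room-air pool 2. Fitted as pools numbered 3 minus the other pools of their groups, Gabrr3 was 0.85 higher (SE 0.176, limma adjusted p 0.00673). That value rested on 1 pool. When F344 hyperoxia pool 3 was left out it was 0.40 with an adjusted p of 0.308, and leaving out the other pool numbered 3 gave 1.30. Without F344 hyperoxia pool 2 it was 0.79 with an adjusted p of 0.0505.

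Gabrr1 read 5.2 in F344 hyperoxia pool 3 and 5.3 in SD room-air pool 3, and between 4.7 and 5.0 in the other 8 pools. Here both pools stood above all others, and Gabrr1 was 0.40 higher (SE 0.0923, limma adjusted p 0.012). The difference was 0.40 without either of them, with adjusted p-values of 0.123 and 0.133, and 0.33 with an adjusted p of 0.0562 after centring each array on its median. Gabrr2 read 4.5 and 4.3 in the pools numbered 3 and between 4.2 and 4.7 in the others, a difference of 0.00 with an interval of -0.26 to 0.26.

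In all, 6 members were called in this comparison, against 14.8% of all probe sets. Of these, 3 rose (Gabrr3, Gabrr1 and Grm2), where 7.22% of all probe sets did, and 3 fell (Grin2c, Glra2 and Gria2), where 7.62% did. At an unadjusted p below 0.05 there were 9 members (21.4%) against 27.5% of all probe sets, so by both measures the receptor genes were near or below the background. Without F344 hyperoxia pool 3 the count fell to 0, without the SD room-air pool of that number to 1 (Gabrr3), and to 3 without F344 hyperoxia pool 2 or without SD room-air pool 1.

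Grm2 was 0.50 higher in the pools numbered 3 (SE 0.135, limma adjusted p 0.0255). Each of these pools held the highest value of its strain, 6.9 in F344 and 6.0 in SD. The call held in 3 of 10 fits that left out 1 pool, those without F344 room-air pool 1 or 2 or SD room-air pool 2.

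Grin2c was 0.35 lower, falling to 6.4 in F344 and 6.8 in SD against 6.8 or more in the other 8 pools (SE 0.0901, limma adjusted p 0.0207). Glra2, the glycine receptor alpha subunit that predominates in immature neurons, fell by 0.35 (SE 0.0938, limma adjusted p 0.0245). It read 7.7 in both pools numbered 3 and between 8.0 and 8.2 in the other 8, with no overlap. The call of Grin2c ended without either pool numbered 3 (adjusted p 0.206 and 0.121), and that of Glra2 without either of them (0.176 and 0.188) or without F344 hyperoxia pool 1 (0.0554) or SD room-air pool 1 (0.0582).

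Gria2, the AMPA subunit that makes these channels nearly impermeable to calcium, read 8.9 and 8.7 in the pools numbered 3 and between 9.0 and 9.3 in the other 8. It fell by 0.35 (SE 0.109, limma adjusted p 0.0473). This call was the least stable of the 6, holding in 1 of 10 fits that left out a pool (without F344 hyperoxia pool 1), and it was lost when quantile normalization was repeated (adjusted p 0.0506).

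**Figure D4:**
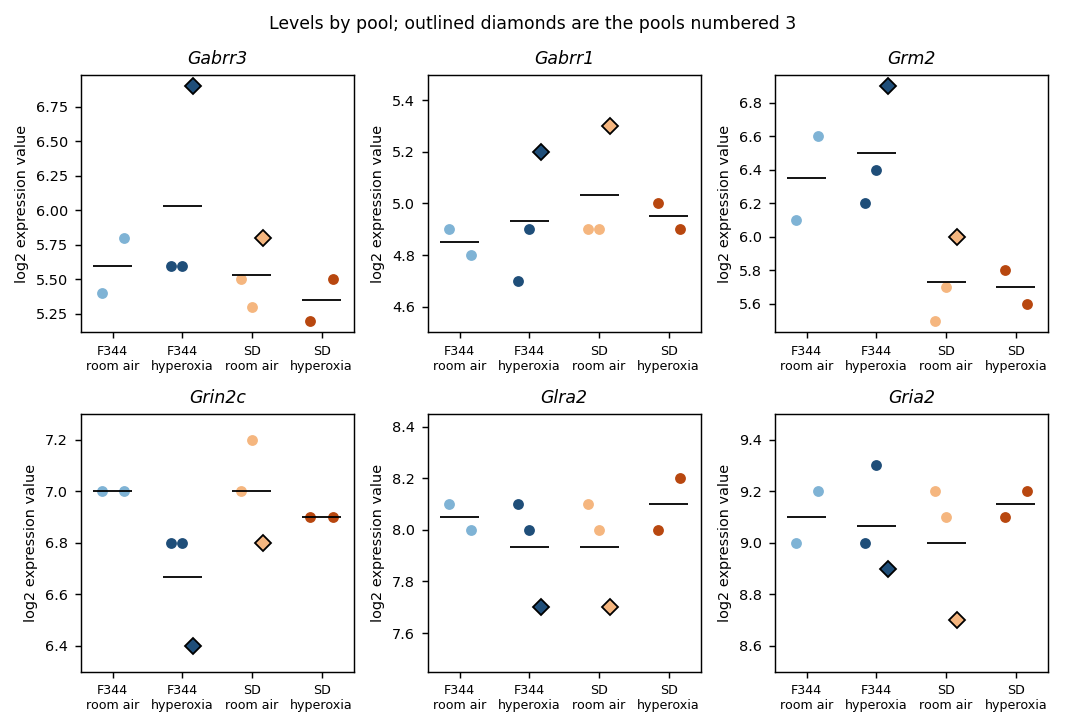
Log2 expression by pool in the 4 groups for the 6 receptor genes called in the pools numbered 3, which are drawn as outlined diamonds; lines are group means and each panel has its own axis. Both diamonds lie above the other pools for Gabrr1 and below them for Glra2 and Gria2, whereas for Gabrr3 only the F344 diamond (6.9) stands clear.

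Some markers of several cell types were called in these 2 pools, and their part in the receptor values was not tested. Of all probe sets, 7.22% were called higher and 7.62% lower in this comparison. Of 13 photoreceptor markers 4 were called higher and 0 lower, and the list's mean was 9.18 and 9.30 in the 2 pools against 8.70 to 9.11 in the other 8. Gngt1, a rod transducin subunit, was 1.38 higher and Rcvrn, recoverin, 0.90 higher. Of 14 ganglion cell markers 4 were higher and 0 lower, with list means of 8.09 and 8.01 against 7.72 to 7.93. Of 14 cell cycle genes 9 were lower and 0 higher, with list means of 9.04 and 8.95 against 9.21 to 9.41. Of 12 progenitor and Mueller glia markers 1 was higher and 4 lower, of 18 amacrine and horizontal markers 2 were higher and 2 lower, and of 8 bipolar markers 1 was higher (Pcp2, 0.60) and 1 lower. Among 3 genes listed as markers of forebrain and cerebellum 1 was higher (Pcp4, 1.23, limma adjusted p 4.56e-05). Emx2 (-0.12) and En2 (0.12) were not called, so the list means of 5.80 in both pools against 5.20 to 5.47 rested mostly on Pcp4. Among 6 lens markers 1 was higher (Cryab, 1.15), with list means of 5.33 and 6.17 against 4.95 to 5.72. Among 3 erythroid markers 1 was higher (Hbb, 0.68), with list means of 5.67 and 6.23 against 5.50 to 5.90.

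Some genes that supply the transmitters were called in this comparison, in both directions. Slc17a6, the vesicular glutamate transporter of retinal ganglion cells, fell by 0.62 in the pools numbered 3 (SE 0.11, limma adjusted p 0.00272), to 7.7 and 7.3. Slc17a7, the vesicular glutamate transporter of photoreceptors and bipolar cells, rose by 0.50 (SE 0.101, adjusted p 0.00594), to 9.3 and 9.2. Slc1a3, the glutamate uptake transporter of Mueller glia, fell by 0.53 (SE 0.086, adjusted p 0.00179), to 8.7 and 8.9. Of 12 glutamate supply genes 1 rose and 3 fell, and of 9 genes for GABA and glycine synthesis, packaging and uptake 1 rose and 2 fell, where 14.8% of all probe sets were called. Of the auxiliary subunits 2 of 9 rose, of 25 excitatory scaffold and adhesion genes 2 rose and 4 fell, of 12 inhibitory scaffold genes 1 rose, and of 8 chloride transporters 1 fell. The calls of Slc17a6 and Slc17a7 ended without either of the 2 pools, and that of Slc1a3 without SD room-air pool 3.

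In the other comparisons these 6 groups of partner genes gave few calls. Limma called 0 genes of each group in SD hyperoxia, in F344 hyperoxia, in their average and in the difference of the effects, and apart from Neto2 it called 0 between the strains averaged over both exposures. In SD the 9 GABA and glycine supply genes all had estimates above 0 in hyperoxia, with a median of 0.13, and in F344 4 were above and 5 below 0, with a median of -0.10. In both strains 0 of them had an unadjusted p below 0.05. Other lists leaned upward in SD hyperoxia too. Of the 12 glutamate supply genes 10 lay above and 2 below 0 there (median 0.10), and of the 14 cell cycle genes 13 above and 1 below (median 0.11). Their list means were lowest among SD room-air pools in pool 3, at 8.11 and 8.95, where SD room air reached 8.28 and 9.41. SD hyperoxia gave 8.27 to 8.28 and 9.37 to 9.39. The GABA and glycine list differed, with 7.71 in SD room-air pool 3, 7.64 to 7.76 over SD room air and 7.83 to 7.84 in SD hyperoxia. Slc12a5, the neuronal chloride exporter that sets whether GABA inhibits, read 8.6 and 8.6 in SD hyperoxia and 8.3 in all 3 SD room-air pools, a difference of 0.30 with a limma adjusted p of 0.815, and was named after its values were seen.

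Genes for GABA-A subunits lie in clusters, and neighbours on a chromosome can share an expression pattern. All 42 members were found in the GRCr8 gene table, on 13 chromosomes, and 12 had another member as the next protein-coding gene. The adjacent pairs were Gabrg3 and Gabra5 on chromosome 1, Gria2 and Glrb on chromosome 2, Gabrr2 and Gabrr1 on chromosome 5, Gabra6 and Gabrb2 on chromosome 10, and Gabrb1 with Gabra4 and Gabra2 with Gabrg1 on chromosome 14, where 1 gene separates Gabra4 from Gabra2. Neighbours did not share the calls: Gabrr1 rose in the pools numbered 3 and Gabrr2 differed by 0.00, and Gria2 fell there while Glrb was not called.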

How the data were processed

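Retinal RNA pools were measured on Affymetrix rat gene arrays. The deposited values are log2 expression per probe set, to 1 decimal, from 3.1 to 14.0. Per the submitters' processing notes, RMA and Partek 6.4 were used. How background and scaling were handled is not given in the sources used here. Groups came from the sample titles and strain labels.

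Of 27342 probe sets, 15097 had 1 symbol in the platform annotation, 323 several and 11922 none. Each gene was read from its probe set with the highest mean. limma 3.58.1 (R 4.3.3) was run with lmFit and eBayes on 1 mean per group over 10 arrays (6 residual degrees of freedom, two-sided, threshold 0.05, 8 comparisons), and the pools numbered 3 were a separate term in their own comparison. The script was tested on simulated data. The number of arrays limits the precision.

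The members, gene lists, tests and alternatives were chosen with earlier results of these data known, so a pattern seen earlier is not independent support. Named genes were, per comparison, all members called and otherwise the smallest p-values up to 4, the widest and narrowest span in each family, and up to 3 called partner genes; other partner and marker genes, and members given as comparators, were named after their values were seen. Replicate numbers do not pair the pools, since same-numbered deviations correlated between -0.0733 and 0.108. Alternatives were repeated quantile normalization, median centring, the brighter probe sets, trend and robust eBayes, array weights, an added-array term, a replicate block, leaving out pools, averaging a gene's probe sets and fitting only the groups compared. The counts of non-overlapping members without the pools numbered 3 were added after seeing the data.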

Additional observations from a re-analysis of the deposited data

How the results depend on the processing

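Of 700 alternative values of the named genes, 646 kept their direction and their side of the threshold, 48 kept the direction but lost the call, 6 gained one and 0 reversed. The count of members called stayed at 0 in the 4 hyperoxia comparisons and in the hyperoxia strain comparison under every alternative run. Between the strains in room air it was 1 (Grm2, adjusted p 0.0214) with the added-array term and 1 (Grm2, 0.0234) with the replicate block, against 0. Averaged over both exposures it was 2 with array weights, with the added-array term, with the replicate block and with a gene's probe sets averaged, against 1; the second gene was Grik3, with adjusted p-values of 0.0306, 0.0191, 0.0342 and 0.0429. Leaving out single arrays gave counts of 0 to 1 there and of 0 to 5 in the pools numbered 3, against 6. For Grik3, which has 1 probe set, averaging changed only the genes fitted alongside it. Other causes were not tested, beyond the smaller number of arrays when arrays are left out. The replicate block could not be fitted for the pools numbered 3, which are the only ones with that number. Rounding to 1 decimal and 2 or 3 arrays a group limit what small differences can show.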

Other observations

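The 3 GABA-A subunits Gabre, Gabrq and Gabrp, outside the set of symbols, were read in the same way. Gabre lay between 4.8 and 5.1, Gabrq between 4.8 and 5.4 and Gabrp between 4.2 and 4.6 in the 10 pools, and limma called none of these 3 in any of the 8 comparisons. The second, dimmer probe set of Grid1 lay between 6.0 and 6.3 and gave a hyperoxia difference in SD of 0.07, where the brighter probe set gave -0.28, so the 2 probe sets of the gene differed in sign. Neither estimate was called.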
